A study of Homo sapiens with 15 samples.

Results

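The LIN28, IGF2BP and HMGA oncofetal genes are 10 genes chosen by symbol: LIN28A, LIN28B, IGF2BP1, IGF2BP2, IGF2BP3, HMGA1, HMGA2, SALL4, TRIM71 and DPPA4. All 10 were among the 60651 genes of the depletion table, and 8 were among the 23792 genes of the overexpression table, which lists neither LIN28A nor DPPA4. RNA was sequenced from 15 libraries that the labels assign to MDA-MB231, an established line from a human breast cancer of the triple-negative type. In the depletion dataset 3 CTRL libraries, given as WT, stood beside 3 SG1 and 3 SG3 libraries, both given as a KIF20A knockdown, and in the overexpression dataset 3 EV libraries, also given as WT, stood beside 3 libraries labelled KIF20A_OE, given as a KIF20A overexpression. KIF20A is a kinesin that acts in cytokinesis. The labels do not say what SG1 and SG3 stand for, which vector carried KIF20A, whether a line was 1 clone, or whether replicates were separate cultures.

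Oncofetal genes are active in the embryo, mostly silent in adult tissue, and active again in some tumours. LIN28A and LIN28B bind the precursors of the let-7 microRNAs and block their maturation, and let-7 in turn silences mRNAs that carry matches to its seed, the LIN28 mRNAs among them. HMGA2, the IGF2BP mRNAs and TRIM71 are well known let-7 targets, so these genes form a circuit with a switch-like behaviour in development. The IGF2BP proteins bind and stabilise mRNAs, many of them carrying N6-methyladenosine (m6A). HMGA1 and HMGA2 are architectural chromatin proteins that bind AT-rich DNA. SALL4 is a zinc finger transcription factor of pluripotent cells, TRIM71 is an RNA-binding ubiquitin ligase of the early embryo, and DPPA4 is a chromatin factor of pluripotent cells.

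The let-7 family is shown first because its seed defines the sites that most members share. No microRNA was measured here. The RefSeq table (GRCh38.p14) held 11 human mature names with the let-7 seed, bases 2 to 8, in capitals in these examples written 5′ to 3′:
let-7a-5p: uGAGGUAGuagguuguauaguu
let-7b-5p: uGAGGUAGuagguugugugguu
let-7g-5p: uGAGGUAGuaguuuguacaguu
miR-98-5p: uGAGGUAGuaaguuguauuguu

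The 7-base match to this seed, CTACCTC, was searched on the transcript strand in 1 annotated 3′ UTR per gene (GENCODE 29). It occurred in 8.58% of the UTRs of 19071 genes, and in 9 of the 10 members, all but DPPA4. TRIM71 held 6 matches, LIN28B, IGF2BP1 and HMGA2 held 4 each, and LIN28A, IGF2BP2, IGF2BP3, HMGA1 and SALL4 held 1 each. Length adds to these counts: among UTRs within 20% of the member's own length, at least as many matches were found in 0.106% for HMGA2, 0.132% for TRIM71, 0.244% for LIN28B and 0.585% for IGF2BP1, but in 8.21% for HMGA1 and 12.2% for SALL4. A match describes letters and is not a measured site. The first and the last match of the members with several, and the single match of HMGA1, are given in transcript sequence with the match in capitals:
LIN28B, match 1 of 4: acccggttgcaaagtCTACCTCatgcaagt
LIN28B, match 4 of 4: aaatgatggtgttgaCTACCTCttgaatca
TRIM71, match 1 of 6: aacattgcttaagtcCTACCTCatctttat
TRIM71, match 6 of 6: ggtgggagtgggaagCTACCTCtaaaagaa
IGF2BP1, match 1 of 4: tgtgtgcgaagtaaaCTACCTCaaggtatg
IGF2BP1, match 4 of 4: tcacttttgttttatCTACCTCttagcaaa
HMGA2, match 1 of 4: gccaacgttcgatttCTACCTCagcagcag
HMGA2, match 4 of 4: aatcaaaacacactaCTACCTCttaagtcc
HMGA1, match 1 of 1: tcctctgttcacaaaCTACCTCtggacagt

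Library totals were 40.9 to 51.0 M counts (M for 1000000) in the depletion dataset and 16.0 to 22.2 M fragments in the overexpression dataset. Levels are counts per 1000000 (CPM) in the former and fragments per 1000000 (FPM) in the latter, and were not tested across the datasets, which were scaled separately. KIF20A, the targeted gene, measured 154, 171 and 160.2 CPM in the CTRL libraries, 123, 147 and 91.5 CPM in the SG1 libraries, and 86.3, 60.8 and 79.1 CPM in those of SG3, so that all depleted libraries lay below all CTRL libraries without passing the test (adjusted p = 0.913 for SG1 and 0.33 for SG3, edgeR). It measured 101, 143 and 124 FPM in EV and 1348, 269 and 896 FPM in the libraries labelled KIF20A_OE (adjusted p = 0.0041, limma). On the first principal component of the depletion dataset, which held 37.6% of the variance, CTRL 3, SG1 1 to 3 and SG3 1 lay on one side and CTRL 1, CTRL 2, SG3 2 and SG3 3 on the other.

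The 3 libraries labelled KIF20A_OE went against the MDA-MB231 label. All 5 genes fixed as markers of a basal or mesenchymal breast line, CD44, AXL, CAV1, EGFR and VIM, were lower there, and their summed level was 396 to 831 FPM against 4964 to 5740 FPM in EV. CD44, a hyaluronan receptor, fell from 523 to 788 FPM in EV to 0.125 to 1.23 FPM. AXL, a receptor tyrosine kinase, fell from 811 to 1107 FPM to 0.75 to 0.811 FPM. Both reached the mean of 1 FPM needed for a test only through EV, so a difference was built in. CAV1, EGFR and VIM reached it in both groups. Their means were 706, 511 and 2653 FPM in EV and 21.4, 31.1 and 556 FPM in KIF20A_OE. Across 17458 genes, the correlation of log2 levels was 0.90 to 0.911 between depletion and EV libraries, and 0.756 to 0.778 between EV and KIF20A_OE libraries. Of the pluripotent cell markers, SOX2 rose from 0.381 to 4.41 FPM to 12.5 to 16.3 FPM. POU5F1 was low in both groups, at 0.942 ± 0.155 FPM in EV and 2.22 ± 0.555 FPM in KIF20A_OE (SD, n = 3). Its limma call was lost with edgeR on fragments recovered from the FPM values (edgeR adjusted p = 0.071). NANOG and ZFP42 are not listed in the overexpression table. Of the germ cell and liver markers, the table lists ALB alone, at 0.188 FPM or less. The summed luminal markers overlapped between the groups (23.9 to 45.5 FPM in EV, 29.7 to 38.9 in KIF20A_OE). EPCAM was lower in KIF20A_OE, while FOXA1 and CDH1 were higher and reached that mean only through KIF20A_OE. The summed fibroblast markers were 25.04 to 64.4 and 75.3 to 83.6 FPM with DCN not listed. Summed endothelial markers were 12.9 to 17.2 FPM in EV but spread from 0.589 to 36.0 FPM among the KIF20A_OE libraries. Summed leukocyte markers overlapped, at 0.677 to 5.23 and 3.43 to 3.69 FPM. The part of these marker differences in the values below was not tested. All 3 KIF20A_OE libraries share the low basal or mesenchymal markers, so no comparison of KIF20A_OE with EV below could be given without them. The KIF20A construct and the identity of the cells cannot be told apart, nor can, in bulk RNA, fewer cells of a type and less RNA per cell.

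LIN28B, which blocks let-7, and TRIM71, a let-7 target, had fragments in the KIF20A_OE libraries and none in EV. These 2 genes and SALL4 reached the mean of 1 FPM needed for a test only through KIF20A_OE, so their direction was fixed. LIN28B (ENSG00000187772.8, chromosome 6, 104936616 to 105083332) was at 0 fragments in EV 1, 2 and 3 and at 68.3, 101 and 59.3 FPM in KIF20A_OE 1, 2 and 3, from 1091, 2241 and 1107 fragments. The groups do not overlap, and the mean was at least 492-fold higher than in EV taken at the floor of 3 fragments per library (0.143 to 0.176 FPM). On the log2(FPM + 1) scale of the test the change was 6.23 ± 0.23 (SE, limma adjusted p = 1.4e-07). TRIM71 (ENSG00000206557.6, chromosome 3, 32818018 to 32897826) was at 0 in all EV libraries and at 21.4, 33.5 and 14.8 FPM in KIF20A_OE, at least 150-fold above the same floor (log2 change 4.52 ± 0.28, limma adjusted p = 2.5e-06). SALL4 stayed low: 2, 0 and 0 fragments in EV, against 40, 63 and 32 fragments or 2.50, 2.84 and 1.71 FPM in KIF20A_OE. Its ratio of pooled rates was 69.7, with an exact 95% interval of 18.9 to 582 that covers counting error only (log2 change 1.69 ± 0.20, limma adjusted p = 9.5e-05).

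IGF2BP1 (ENSG00000159217.10, chromosome 17, 48997412 to 49055650), the paralog expressed mainly in the fetus, had the largest log2 change of the 8 listed members under limma. It had 4, 0 and 0 fragments in EV and 326, 385 and 275 FPM in KIF20A_OE, from 5138 to 8535 fragments per library. The ratio of pooled rates was 4875, with an exact interval of 1904 to 17892, and the log2 change was 8.27 ± 0.18 (limma adjusted p = 2.3e-08). LIN28B, TRIM71, SALL4 and IGF2BP1 reached the filter of 1 FPM on the mean only through the KIF20A_OE libraries, so among tested genes they had to differ. The other 4 listed members passed it in both groups.

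IGF2BP2 (chromosome 3, 185643739 to 185825056), the paralog most widely expressed in adult tissue, measured 147, 189 and 149 FPM in EV and 95.9, 103 and 109 FPM in KIF20A_OE. IGF2BP3 (chromosome 7, 23310209 to 23470467) measured 74.0, 78.6 and 102 FPM in EV and 39.3, 60.5 and 51.6 FPM in KIF20A_OE. For both genes every KIF20A_OE library lay below every EV library, and both falls passed the test, by 0.65 ± 0.13 and 0.75 ± 0.19 on the log2 scale (limma adjusted p = 0.0026 and 0.0076). IGF2BP3 overlaps MALSU1 on the opposite strand, and no source used here gives the strand setting of the counting, so reads of the shared part cannot be assigned.

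HMGA1 (ENSG00000137309.20, chromosome 6, 34236873 to 34246231) was among the most abundant transcripts of the EV libraries and fell. It measured 2572, 3540.1 and 3524 FPM in EV and 304, 433 and 312 FPM in KIF20A_OE. The lowest EV library was far above the highest KIF20A_OE library, and the log2 change was -3.20 ± 0.18 (limma adjusted p = 1.5e-06). HMGA2 (ENSG00000149948.14, chromosome 12, 65824131 to 65966295) measured 87.0, 125 and 98.1 FPM in EV and 18.3, 27.1 and 19.8 FPM in KIF20A_OE, again without overlap (-2.20 ± 0.19, limma adjusted p = 1.8e-05). HMGA2-AS1, an antisense transcript within HMGA2, fell with it, from 35, 74 and 55 fragments to 7, 0 and 4 (-1.63 ± 0.26, limma adjusted p = 0.00057). Without a stated strand setting, reads of the HMGA2 pair cannot be told apart where their exons overlap. The listed HMGA1 pseudogenes, HMGA1P2, HMGA1P3 and HMGA1P8, held 21 fragments or fewer in any overexpression library, against 4855 to 73248 for HMGA1.

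**Figure D1:**
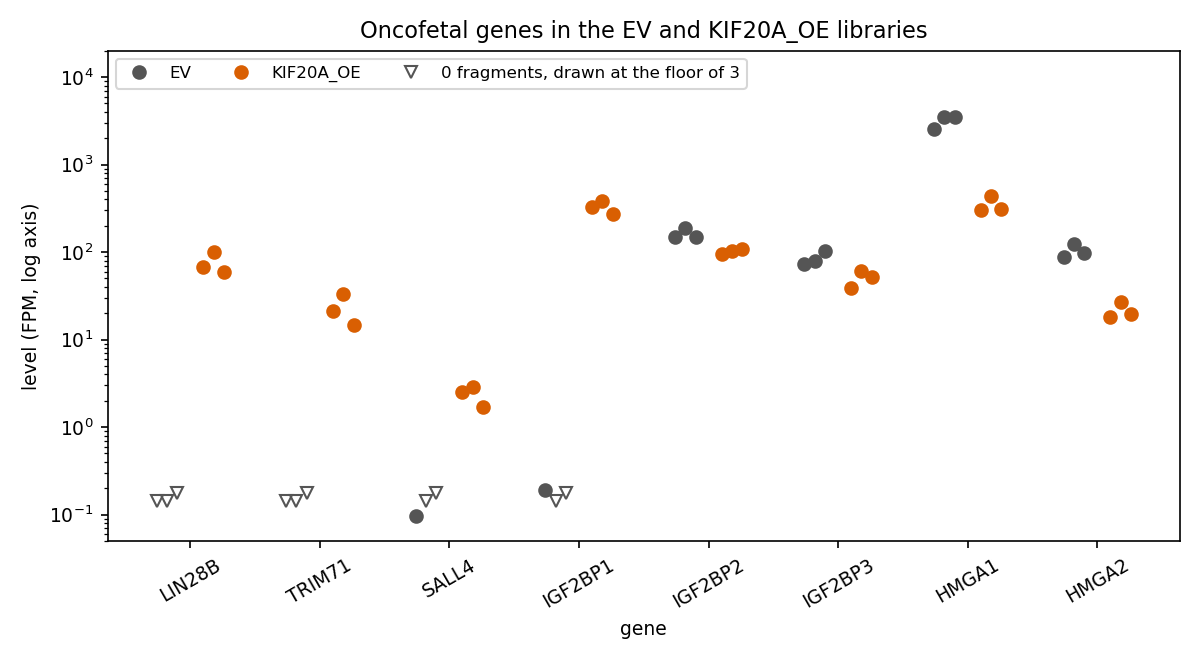
Level of the 8 listed members in each EV and KIF20A_OE library, in FPM on a log axis, with 1 point per library in replicate order and open triangles for 0 fragments drawn at the floor of 3 fragments. LIN28B and TRIM71 are at 0 in EV and at 14.8 to 101 FPM in KIF20A_OE, while HMGA1 and HMGA2 are lower in every KIF20A_OE library.

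These values stand against a very wide difference between the groups. Of 15265 genes tested, limma called 46.2% higher and 23.4% lower in KIF20A_OE, and the 3 libraries of each group did not overlap for 48.9% higher and 25.2% lower. Of the members 4 were called higher and 4 lower, all without overlap. The 4 called higher are those that passed the filter only through KIF20A_OE. A call by itself therefore does not set a member apart from other genes. The median of all tested genes was 0.37 higher on the log2 scale. Relative to it the change was -1.02 for IGF2BP2, -1.12 for IGF2BP3, -2.58 for HMGA2, -3.57 for HMGA1, 1.31 for SALL4, 4.15 for TRIM71, 5.86 for LIN28B and 7.89 for IGF2BP1. With TMM scaling and edgeR on fragments recovered from the FPM values, 33.2% of 17078 genes were called higher and 30.5% lower, so that 52.1% of calls were higher, against 66.4% with limma, and each listed member was called in the same direction. Among the KIF20A_OE libraries, the second had the least KIF20A (269 FPM) and the highest level of every listed member but IGF2BP2.

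Levels per length put the members on a common scale: the level was divided by exonic length in kb and scaled to a sum of 1000000 (TPM). In EV the order was HMGA1 at 5996 ± 1017 TPM, IGF2BP2 at 148 ± 20.6, IGF2BP3 at 43.4 ± 7.79 and HMGA2 at 29.2 ± 5.38, with IGF2BP1 and SALL4 under 0.1 and LIN28B and TRIM71 at 0 (SD, n = 3). The closest neighbours in that order, IGF2BP3 and HMGA2, did not overlap, at 37.9 to 52.3 and 24.6 to 35.1 TPM. Their order rests on the length used: HMGA2 was divided by 15.4 kb, which joins the exons of all its annotated transcripts. Without division by length it is reversed, with EV means of 103 FPM for HMGA2 and 84.9 FPM for IGF2BP3. Which transcripts were expressed was not tested. HMGA1 ranked 2 to 6 among all genes in EV libraries. In KIF20A_OE the order was HMGA1 at 628 ± 127 TPM, IGF2BP1 at 151 ± 25.1, IGF2BP2 at 90.5 ± 5.36, LIN28B at 53.0 ± 15.1, IGF2BP3 at 24.8 ± 5.08, TRIM71 at 11.2 ± 4.52, HMGA2 at 5.90 ± 1.26 and SALL4 at 1.70 ± 0.42. HMGA1 ranked 134 to 212 there. TRIM71 and HMGA2 overlap only at 7.11 to 7.33 TPM, the lowest TRIM71 and the highest HMGA2 library.

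Within the IGF2BP family the leading paralog differed between the groups. IGF2BP1 made up 0.0175 ± 0.0303% of the family's TPM in EV and 56.5 ± 4.81% in KIF20A_OE (SD, n = 3). IGF2BP2 went from 77.3 ± 4.45% to 34.3 ± 4.24%, and IGF2BP3 from 22.7 ± 4.45% to 9.28 ± 1.44%. The summed family level was 174, 212 and 189.7 TPM in EV and 255, 296 and 247 TPM in KIF20A_OE, a ratio of 1.39 with no overlap (two-sided exact permutation p = 0.1, the smallest that 3 against 3 libraries allow). The ratio of IGF2BP2 to IGF2BP3 overlapped between the groups, at 2.63 to 4.32 in EV and 3.05 to 4.38 in KIF20A_OE. In the HMGA pair, the ratio of HMGA1 to HMGA2 was 187.2 to 237.7 in EV and 104.5 to 109.7 in KIF20A_OE, without overlap, and its mean was 0.515 of that in EV. Both genes were lower in KIF20A_OE, HMGA1 by the larger factor, and HMGA1 still held 99.1 ± 0.0231% of the summed HMGA level there. The size of this ratio and share depends on the length taken for HMGA2, which is the same in both groups. The summed HMGA level was 0.105 of that in EV (two-sided exact permutation p = 0.1).

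**Figure D2:**
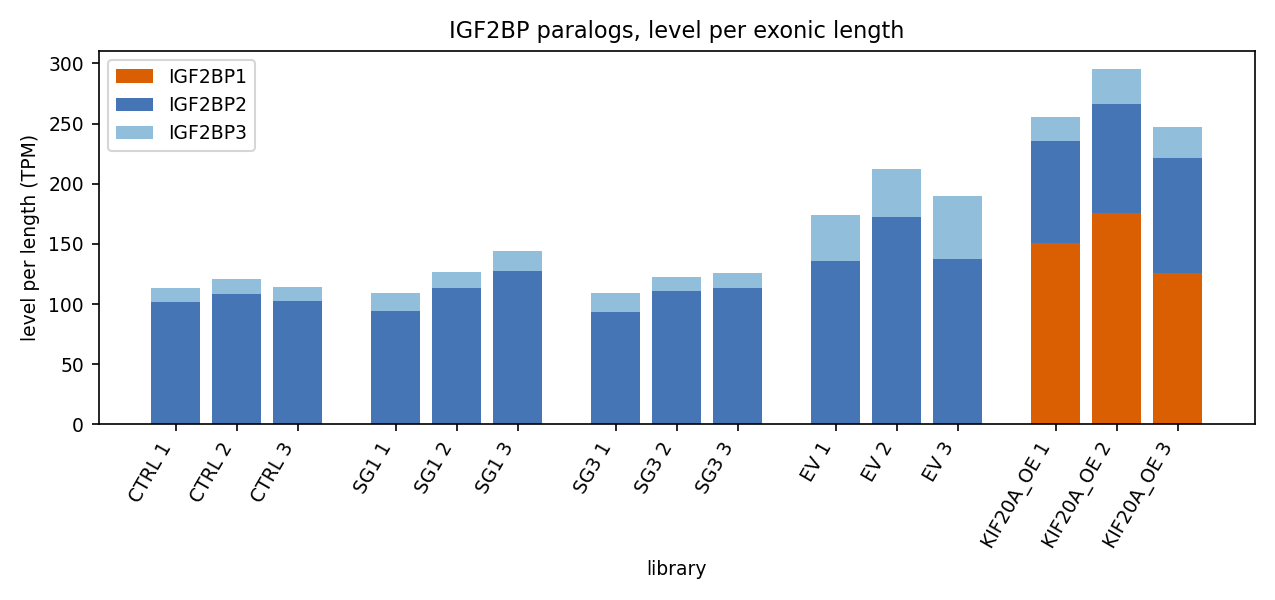
Stacked bars of the level per length (TPM) of IGF2BP1, IGF2BP2 and IGF2BP3 in each of the 15 libraries. IGF2BP1 makes up 50.9 to 59.5% of the stack in the KIF20A_OE libraries and is close to 0 in the 12 others, where IGF2BP2 leads; heights of the depletion and overexpression datasets come from separate scalings.

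Set against the let-7 seed matches shown above, the 4 members that passed the filter in both groups were all lower. HMGA2, with 4 matches, had a log2 change of -2.20, and IGF2BP2, IGF2BP3 and HMGA1, with 1 match each, had -0.65, -0.75 and -3.20. The direction of the other 4 was fixed by the filter and is not read against their matches. Over all tested genes, the median log2 change was 0.34 for 11841 genes with no match, 0.44 for 1169 genes with 1 match and 0.41 for 154 genes with more, so the bins differ little. Of the genes with more than 1 match, 50% were called higher and 30.5% lower, against 45.7% and 24.5% of those with none.

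**Figure D3:**
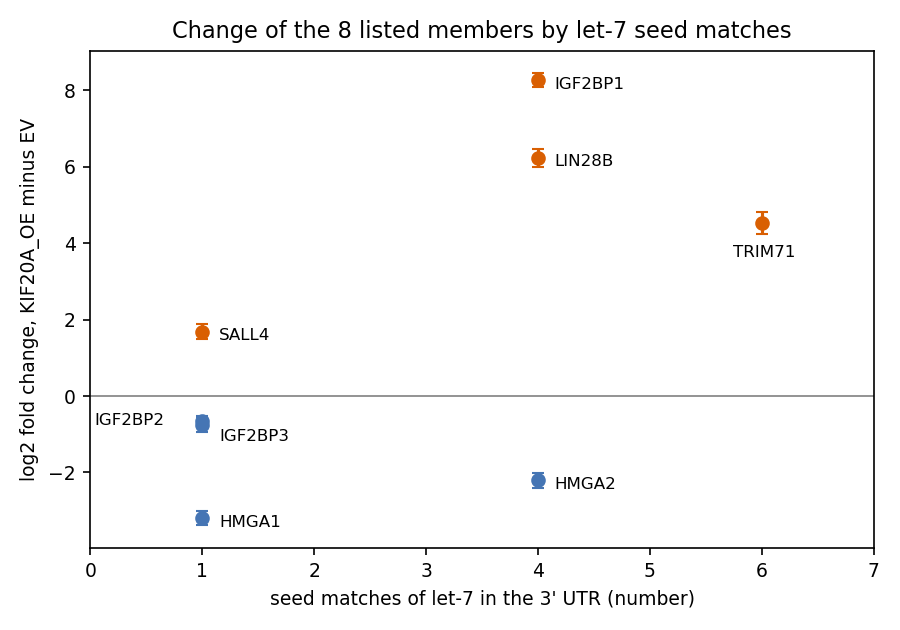
Log2 fold change of the 8 listed members (KIF20A_OE minus EV, bars are the limma SE) against the number of let-7 seed matches in the annotated 3′ UTR. The members with 4 matches lie at 8.27, 6.23 and -2.20, and those with 1 match lie from -3.20 to 1.69; the 4 members above 0 passed the filter only through KIF20A_OE.

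In the depletion dataset only 4 of the 10 members were expressed well enough to be tested: IGF2BP2, IGF2BP3, HMGA1 and HMGA2. LIN28A and DPPA4 had 0 counts in all 9 libraries, where the floor of 3 counts was 0.0571 to 0.0723 CPM. LIN28B had 4 counts in SG3 1 and none elsewhere, and TRIM71 had 2 counts in SG1 1 and 2 in SG3 3. IGF2BP1 had 6, 4 and 0 counts in CTRL, 0 in all SG1 libraries, and 8, 0 and 2 in SG3. SALL4 had 6, 4 and 4 counts in CTRL, 0, 2 and 14 in SG1, and 8, 8 and 4 in SG3. No difference between groups was detectable for these 6 genes at this depth.

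HMGA1 measured 1802, 2039.6 and 1288 CPM in CTRL. Its SG1 libraries were at 1872, 921 and 2268 CPM, and its SG3 libraries at 1314, 2147 and 2033 CPM. The groups overlap, and the SG1 libraries alone spanned the whole range of the dataset. The log2 change was -0.02 ± 0.28 for SG1 and 0.10 ± 0.28 for SG3 (edgeR adjusted p = 0.999 and 1); both changes are smaller than their error. The lowest levels were in SG1 2, CTRL 3 and SG3 1, 3 of the 5 libraries on one side of the first principal component, while the 4 libraries on the other side lay between 1802 and 2147 CPM.

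HMGA2 was at 65.8, 52.4 and 45.1 CPM in CTRL, against 74.8, 42.3 and 85.1 CPM in SG1 and 64.9, 51.3 and 53.5 CPM in SG3. Again the groups overlap, with a log2 change of 0.31 ± 0.22 for SG1 and 0.06 ± 0.22 for SG3 (edgeR adjusted p = 0.913 and 1). Its antisense HMGA2-AS1 varied with it over the 9 libraries (Pearson r = 0.844, n = 9), at 13 to 37 counts per library. HMGA1 and HMGA2 had r = 0.557 over the same libraries. With the first principal component named above, r was -0.628 for HMGA1 and 0.128 for HMGA2. What lies behind these correlations was not tested.

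For IGF2BP2 the CTRL libraries had 115, 121 and 118 CPM, the SG1 libraries 108, 129 and 147 CPM and the SG3 libraries 99.2, 123 and 124 CPM. CTRL libraries were close together and lay inside the range of both depleted groups (log2 change 0.11 ± 0.15 for SG1 and -0.03 ± 0.15 for SG3, edgeR adjusted p = 0.936 and 1). For IGF2BP3 they were 23.6, 24.6 and 23.5 CPM in CTRL, 29.98, 26.6 and 35.6 CPM in SG1, and 30.9, 23.0 and 23.6 CPM in SG3. It is the sole member whose libraries did not overlap in a depletion contrast: every SG1 library lay above every CTRL library. The log2 change of 0.36 ± 0.16 had an unadjusted p of 0.0435 and an edgeR adjusted p of 0.913, so it did not pass. SG3 1, at 30.9 CPM, lies with the SG1 libraries on the first principal component, and CTRL 3, at 23.5 CPM, does too; the part of that component in the difference was not tested.

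These counts match a background of few differences. At an adjusted p under 0.05, edgeR called 0% of 16786 genes and none of the 4 members in each of 4 contrasts: SG1 with CTRL, SG3 with CTRL, the averaged depleted groups with CTRL, and SG1 with SG3. At an unadjusted p under 0.05 there were 770, 200, 295 and 795 genes, and DESeq2 called 2, 4, 4 and 4 genes, no member among them. Libraries did not overlap for 4.96% of genes higher and 7.21% lower in SG1 than in CTRL, where IGF2BP3 was 1 of the 4 members. For SG3 these shares were 2.28% and 2.38%. Between the depleted groups, 6.26% of genes were higher and 4.55% lower in SG1, and 0 members fell in any of these sets. The summed IGF2BP level was 116 ± 4.14 TPM for CTRL, 127 ± 17.7 TPM for SG1 and 119 ± 8.56 TPM for SG3 (SD, n = 3; two-sided exact permutation p = 0.4 and 0.6 against CTRL). IGF2BP2 held 88.2 to 89.9% of it as group means. The summed HMGA level was 3084 ± 724, 3010 ± 1213 and 3423 ± 778 TPM (two-sided exact permutation p = 1 and 0.5), with HMGA1 ranked 16 to 41 among all genes.

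**Figure D4:**
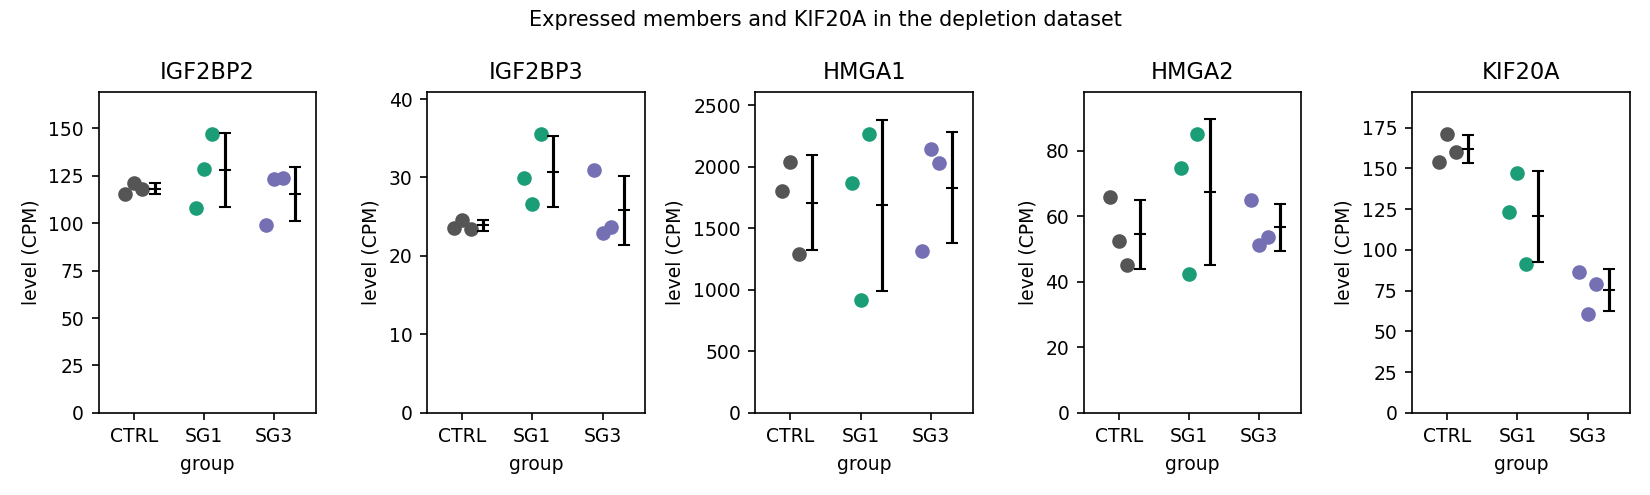
CPM of the 4 tested members and of KIF20A in each CTRL, SG1 and SG3 library (points, in replicate order) with the group mean and SD beside them, on linear axes from 0. IGF2BP3 in SG1 (26.6 to 35.6 CPM) is the sole member group that clears the CTRL range of 23.5 to 24.6, and KIF20A is below CTRL in all 6 depleted libraries.

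The genes most like each expressed member were named by the highest Pearson r of log2(CPM + 1) over the 9 depletion libraries, among 9325 genes. They were PHC2 (r = 0.979), FBXO31 and ROBO3 for HMGA1, STX16 (0.962), DNMBP and CSF3 for HMGA2, ALG10B (0.97), DOCK9 and PPFIBP1 for IGF2BP3, and RP9 (0.918), POP1 and B3GALNT2 for IGF2BP2. In the 6 overexpression libraries, where r mostly reflects the distance between the groups, it was 0.988 for PHC2, but -0.671 for STX16, -0.861 for ALG10B and 0.483 for RP9. Genes that differ in the same direction between EV and KIF20A_OE tend to a high r there, so these values cannot show whether likeness held. The r over the 9 depletion libraries is that of genes picked as the highest, so it is not independent support either.

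Around the members, the let-7 processing and silencing machinery was expressed in every group. For this and the lists below, the share of all genes to read a count against is 46.2% higher and 23.4% lower with limma, and 33.2% and 30.5% with edgeR and TMM scaling of recovered fragments. Of 19 genes tested in KIF20A_OE against EV, 12 rose and 2 fell, with a median log2 change of 0.46 beside 0.37 for all genes. With edgeR and TMM, where the median of all genes is 0.08, 6 rose and 5 fell, and DICER1, XPO5 and TUT4 are among the genes whose call was lost. The genes named next passed under both. TNRC6C, a scaffold of the silencing complex, rose from 17.6 ± 2.29 to 52.0 ± 4.54 FPM, and DROSHA, the nuclear microRNA processing enzyme, from 82.1 ± 6.74 to 143 ± 5.89 FPM (limma adjusted p = 4e-05 and 0.00032). TUT7, which uridylates let-7 precursors with LIN28, and AGO2, the slicing Argonaute, fell, by 0.86 and 0.58 on the log2 scale (limma adjusted p = 0.0025 and 0.0021). Of the 5 let-7 host transcripts, HUWE1 rose to 508 ± 5.35 FPM and MIRLET7BHG, which passed the filter only through EV, was at 2.38 ± 0.678 FPM there and 0.599 ± 0.336 FPM in KIF20A_OE. MIR100HG, host of a let-7a copy, was too low to be tested in the overexpression dataset (0.266 ± 0.141 FPM in EV and 0 in KIF20A_OE), though at 36.6 CPM in CTRL. Host transcripts do not give the level of mature let-7.

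Of the 24 other known let-7 targets tested, 11 rose and 6 fell (median 0.19), shares near the background of 46.2% and 23.4%, and with edgeR and TMM 8 rose and 9 fell. They moved far in both directions: HIC2, a transcriptional repressor, rose from 8.78 ± 1.11 to 102 ± 20.6 FPM, and CCND2, a cyclin, from 1.70 ± 2.04 to 51.3 ± 4.49 FPM. CCND1, its paralog, fell from 1127 ± 254 to 38.3 ± 20.4 FPM, and THBS1, a matrix glycoprotein, from 294 ± 78.7 to 1.17 ± 0.0771 FPM. All 4 passed limma's test, at adjusted p of 3.4e-05 or less, and edgeR's.

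IGF2BP proteins read m6A, and 11 of 15 m6A writers, erasers and YTH readers rose and 0 fell (median 0.52), beside 46.2% and 23.4% of all genes, which became 7 and 2 with edgeR and TMM, beside 33.2% and 30.5%. RBM15, of the writer complex, rose from 23.0 ± 3.59 to 70.0 ± 10.5 FPM, and YTHDF2, a reader that promotes decay, from 125 ± 9.90 to 245 ± 11.8 FPM (limma adjusted p = 6.6e-05 and 9.1e-05). Of 16 IGF2BP partners and client mRNAs tested, 8 rose and 4 fell (median 0.40), close to the 46.2% and 23.4% of all genes, and 4 rose and 6 fell with edgeR and TMM, where all genes gave 33.2% and 30.5%. These counts are thus near the background. The RNA-binding partner HNRNPU rose from 687 ± 65.8 to 1418 ± 61.5 FPM. The client mRNA MAPK4 was at 0 in EV and at 5.996 to 12.5 FPM in KIF20A_OE, while the client CD44 was near 0 in KIF20A_OE; each passed the filter through 1 group only, so a difference was built in. MYC, a well known client, measured 216 ± 58.7 and 188 ± 71.1 FPM and did not pass (limma adjusted p = 0.503). IGF2 itself, for which the family is named, was at 0 in EV and at 0.331 ± 0.25 FPM in KIF20A_OE.

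Of 12 other HMG box, HMGN and HMGA partner genes, 9 rose and 1 fell (median 0.97), beside 46.2% and 23.4% of all genes, and 7 and 1 with edgeR and TMM, beside 33.2% and 30.5%. HMGB2, an HMG box protein of dividing cells, rose from 190.0 ± 56.8 to 474 ± 15.6 FPM, and HMGN2, a nucleosome binder, from 409 ± 122 to 801 ± 39.0 FPM (limma adjusted p = 0.00044 and 0.0021). HMGN4 was the gene that fell, by 0.73 on the log2 scale. PLAGL1, an imprinted zinc finger gene, was at 0.223 ± 0.122 FPM in EV and 155 ± 34.2 FPM in KIF20A_OE, and it too passed the filter only through the latter.

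SALL4 was the least abundant of the SALL paralogs in KIF20A_OE. SALL1 measured 46.3 ± 8.58 FPM there, SALL2 74.4 ± 5.29 and SALL3 13.9 ± 9.49, against 0.0196 ± 0.0339, 9.46 ± 5.25 and 0 FPM in EV. SALL2 passed the filter in both groups and rose (limma adjusted p = 4.5e-05), whereas SALL1 and SALL3 passed it only through KIF20A_OE, so their difference was built in. The same holds for ESRRB, POU5F1 and TFCP2L1, a factor of naive pluripotency at 29.2 ± 8.70 FPM in KIF20A_OE. These 5 are among the 10 pluripotency and early embryo genes tested, so the list's count of 8 higher and 1 lower, which was 8 and 1 of 11 with edgeR and TMM, is not read against the background. Of the 5 that passed the filter in both groups, SALL2, SOX2 and DNMT3B rose, KLF4 fell, and TERT did not pass the test. Another 8 of the 19 listed genes of that group, NANOG among them, have no value in the overexpression table. Of the 5 other oncofetal genes tested, 1 rose and 2 fell with limma, and equally with edgeR and TMM. GPC3, a membrane proteoglycan and fetal antigen, was at 0.341 ± 0.0101 FPM in EV and 95.7 ± 30.7 FPM in KIF20A_OE. PEG10, an imprinted gene, was at 249.6 ± 57.1 and 0.396 ± 0.596 FPM. GPC3 and PEG10 each passed the filter through 1 group only. TPBG passed it in both groups and fell from 174 to 46.5 FPM (limma adjusted p = 7.95e-06). H19 and PLAC1 were not called.

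**Figure D5:**
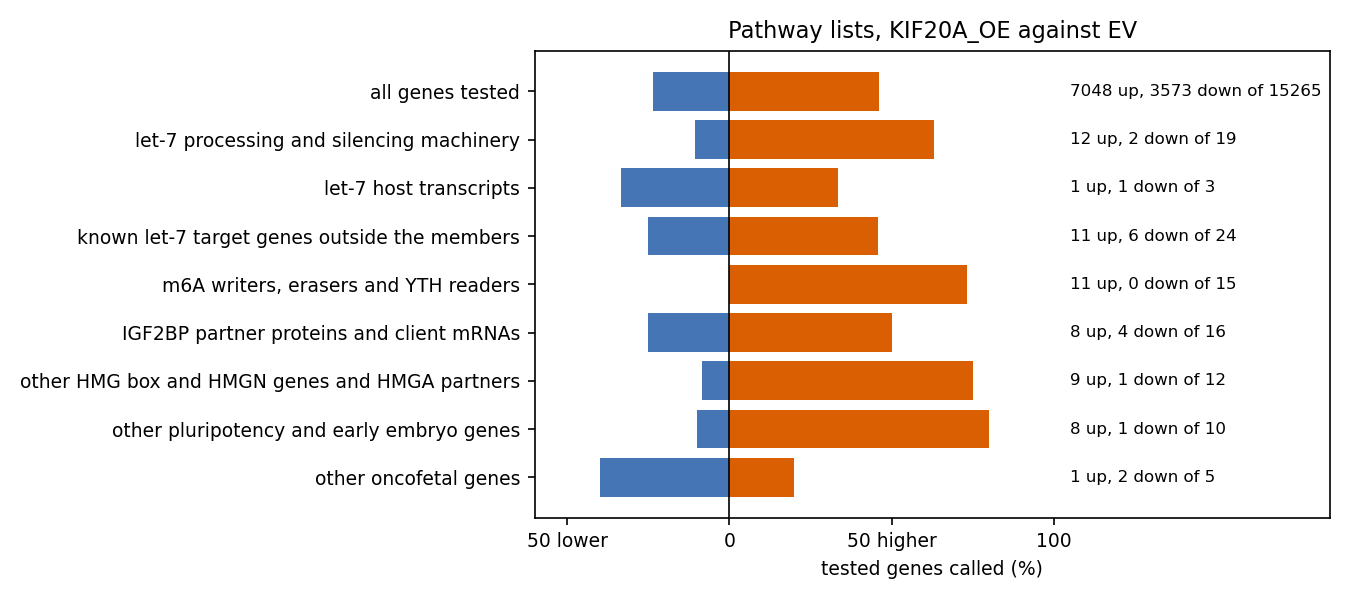
Share of tested genes called higher (right) and lower (left) in KIF20A_OE against EV for each pathway list, with the counts, beside all genes tested. These are limma calls on FPM values: the pluripotency list holds 5 genes that passed the filter only through KIF20A_OE, the m6A list has 11 higher and 0 lower of 15, which became 7 and 2 with TMM scaling, and the let-7 target list, 11 and 6 of 24, is close to all genes.

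In the depletion dataset none of the genes on these lists was called. With both depleted groups averaged and set against CTRL, median log2 changes of the 8 pathway lists lay between -0.03 and 0.14, beside -0.01 for all genes. The smallest unadjusted p on them was that of TPBG, an oncofetal glycoprotein, at a mean of 2.57 CPM for CTRL, 0.937 CPM for SG1 and 2.10 CPM for SG3 (log2 change -0.88 ± 0.31, unadjusted p = 0.0132, edgeR adjusted p = 1).

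Promoter sequence was at hand in the RefSeq table for 6 of the 10 members: LIN28B, TRIM71, IGF2BP2, IGF2BP3, HMGA1 and DPPA4. LIN28B and HMGA1 are shown because the first went from 0 fragments to 68.3, 101 and 59.3 FPM and the second fell from ranks 2 to 6 to ranks 134 to 212. The window runs from 250 bases before to 50 after the annotated start (GRCh38.p14, plus strand, 6:104940715-104941014 for LIN28B and 6:34236623-34236922 for HMGA1), and capitals mark the GC box GGGCGG on either strand:
LIN28B promoter: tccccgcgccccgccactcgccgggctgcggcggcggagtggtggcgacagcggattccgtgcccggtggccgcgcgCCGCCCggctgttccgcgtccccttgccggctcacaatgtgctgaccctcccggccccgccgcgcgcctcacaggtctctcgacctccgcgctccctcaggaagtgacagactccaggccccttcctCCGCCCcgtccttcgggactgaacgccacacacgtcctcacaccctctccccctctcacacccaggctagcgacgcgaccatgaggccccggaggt
HMGA1 promoter: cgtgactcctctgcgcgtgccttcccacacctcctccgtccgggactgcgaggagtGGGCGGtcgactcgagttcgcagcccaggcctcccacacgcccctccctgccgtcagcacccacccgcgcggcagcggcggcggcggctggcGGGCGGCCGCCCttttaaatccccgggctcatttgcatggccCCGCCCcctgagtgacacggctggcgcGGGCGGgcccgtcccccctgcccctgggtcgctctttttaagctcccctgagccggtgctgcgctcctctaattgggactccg

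Both windows are rich in CpG. LIN28B has 37 CpG and 2 GC boxes and HMGA1 has 33 CpG and 5 GC boxes, beside a median of 14 CpG over 35116 promoters, 45.0% of which hold a GC box. Both genes have a second window at another annotated start, with 8 CpG in LIN28B and 5 in HMGA1 and no GC box in either. Which start was used was not tested. TRIM71 has 27 CpG, IGF2BP2 has 38 in its first window, IGF2BP3 has 17, and DPPA4, at 0 counts in the depletion dataset, has 5. The box TATAAA, searched on both strands, is in 11.5% of all windows and in 1 of the 9 windows of these members, a second start of IGF2BP2. A match here is a description of letters and says nothing about a bound factor.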

How the data were processed

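Gene expression was measured by RNA sequencing in 15 libraries, and the groups and replicate numbers come from the sample titles. The depletion table holds the authors' raw counts per gene. The overexpression table is named FPKM in the labels, but each column sums to 1000000, so the deposited values are fragments per 1000000 fragments (FPM, a form of CPM) without gene length; dividing by each library's step gave whole fragments for 100% of values within 0.001 fragments. The planned log2 test fitted either unit and was kept. The submitters' processing notes name Trim Galore 0.6.4, STAR 2.7.3a, Subread 1.6.3, featureCounts, limma 3.50.3 and hg38; no source used here gives the role of each tool, the annotation release, the strand setting or the treatment of reads shared by paralogs or pseudogenes. Gene identifiers were matched to GENCODE 29 without their versions (96.3% and 97.3% of rows), which gave positions and exonic lengths. The exonic length joins all annotated exons of a gene, so it can exceed that of the transcripts expressed.

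Counts were tested with edgeR 4.0.16 (quasi-likelihood, TMM, its default expression filter, all 9 libraries in 1 fit). FPM values were tested with limma 3.58.1 (trend, robust) on log2(FPM + 1) for genes whose mean reached 1 FPM; this scale understates the change of low genes. Adjusted p-values are Benjamini-Hochberg values over all tested genes, with a threshold of 0.05. Depletion CPM use TMM library sizes. Alternatives were DESeq2 1.42.0, its size factors in edgeR, other filters and pseudocounts, halved counts, edgeR on the recovered fragments (10889 genes called), a replicate block, and leaving out each library. The models were tested on simulated data.

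Named genes are all members and KIF20A, rows whose symbol starts with a member's, from each list the 2 genes with the smallest unadjusted p per dataset and any that passed, and the 3 genes most correlated with each expressed member. Members and lists were chosen with earlier results of these data known, so no count over them is independent support. The labels do not say that replicates were separate cultures; p-values then reflect only how far these samples spread, possibly for technical reasons. No molecular identifiers are named for these reads, which are then not independent molecules, and intervals and floors include counting error alone. Among depletion counts of 10 to 50, 62.9 to 68.0% per library were even, and the cause was not tested.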

Additional observations from a re-analysis of the deposited data

How the results depend on the processing

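Each of the 8 listed members kept its direction and its call for KIF20A_OE against EV under every alternative in which it was tested. For LIN28B, TRIM71, SALL4 and IGF2BP1 the filter fixed the direction beforehand, so a kept call is no support for them. Members called were 7 to 8 when each library was left out, since SALL4 fell under the filter in 2 of those fits. The change of IGF2BP2 ran from -1.03 to -0.53 over the alternatives and that of IGF2BP3 from -1.12 to -0.58 (highest limma adjusted p = 0.0134 and 0.0278). Genes called were 9583 to 10363 without single libraries, 13254 without the filter, and 10530 with the replicate block. The replicate block called 0 genes in the depletion contrasts. Same-numbered libraries had correlated deviations of -0.22 to 0.43 (depletion) and 0.0142 to 0.0577 (overexpression). Other pairs reached -0.396 to 0.387 and -0.0497 to 0.00930. In the depletion dataset these ranges overlap, so the numbers show no pairing there. In the overexpression dataset every same-numbered pair lay above the others, though at values near 0. Whether the numbers pair those samples was not tested.

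In the depletion contrasts no member was called under any alternative. Genes called without the low-count filter numbered 91 for the SG1 contrast with CTRL, 8 for SG3, 20 for their mean and 77 between SG1 and SG3, and with DESeq2 they were 2, 4, 4 and 4. Leaving out single libraries gave 0 to 1 genes for SG1, 0 for SG3, 0 to 2 for the mean and 0 to 5 for SG1 against SG3; the 1 and the 2 came without SG1 2, and the 5 without SG3 1. Leaving out single libraries also turned the sign of changes near 0. HMGA1 ran from -0.29 to 0.27 for SG1, -0.0739 to 0.31 for SG3, -0.14 to 0.21 for the mean and -0.39 to 0.15 for SG1 against SG3. IGF2BP2 ran from -0.0983 to 0.0910 for SG3 and -0.0168 to 0.10 for the mean. For SG3, HMGA2 ran from -0.0726 to 0.21 and IGF2BP3 from -0.00917 to 0.19. IGF2BP3 for SG1 stayed between 0.25 and 0.46. In the depletion libraries the low or absent counts of LIN28A, LIN28B, IGF2BP1, SALL4, TRIM71 and DPPA4 allow only statements about detection.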
